A study of Homo sapiens with 6 samples.

Results

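Integrin and laminin chains are the receptor and ligand ends of the contact between an epithelial cell and its basement membrane. The 35 gene symbols taken here cover integrin alpha chains, integrin beta chains and laminin chains, and their members on the array are all probe sets annotated to exactly 1 of these symbols. This gave 90 probe sets of 33 genes, 67 for integrin chains and 23 for laminin chains, out of 54613 probe sets and 19775 genes. ITGB6 shares its probe sets with a second gene and LAMA3 has no probe set of its own in the annotation used, so neither was analysed here. RNA came from PC9, a gefitinib-sensitive lung adenocarcinoma cell line, and from PC9/gef, the resistant line selected from PC9 under increasing concentrations of the EGFR kinase inhibitor gefitinib. There were 3 arrays per line, called biological replicates in the labels, and both lines were grown in the same serum-containing medium. PC9/gef is a single selected line, and whether gefitinib was present when its RNA was taken is not given in the sources used here. The question is which chains differ between the sensitive and the resistant line, and p-values cover only the spread between these samples, for which separate selections or culture dates are not given.

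An integrin is a pair of 1 alpha and 1 beta chain that spans the membrane, binds the matrix outside and is coupled to actin or keratin filaments inside. The alpha chain largely sets the ligand: some chains bind collagen, some bind laminin, and others bind the short RGD motif of fibronectin and vitronectin, while a further set serves leukocytes. Laminins are trimers of an alpha, a beta and a gamma chain that are secreted and assemble into the basement membrane, where they are bound by laminin-type integrins. A cell can carry several of these pairs at once.

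In PC9/gef, the RGD-binding chains ITGAV and ITGA5, their partners ITGB5 and ITGB1, the collagen-binding chain ITGA2 and the laminin chain LAMB3 were higher. The laminin-binding chains ITGA3 and ITGB4 and the laminin chains LAMA4, LAMB1 and LAMC1 were lower. None of these 11 changes reached 2-fold on the probe set that represents the gene. Of the remaining measured genes, 10 gave no call and 12 were at background level. The calls of ITGB1 and LAMC1 were not shared by their other probe sets. That of LAMB1 was lost when any 1 array was left out. The test was limma with Benjamini-Hochberg adjustment over all 54613 probe sets, and a gene passed at an adjusted p under 0.05. Log2 changes are PC9/gef minus PC9 and are given ± their standard error, whereas levels are given ± SD. Where a gene had several probe sets the brightest by its mean on the 6 arrays was read, and background level, a log2 value of 2.65, is the 95th percentile of 135 olfactory receptor probe sets. By the same rule 24.4% of all genes passed, 12.6% higher and 11.8% lower, and among genes above background level 40.4% passed. The counts of 11 of 33 members, and 11 of the 21 above background level, stand against that large share. The median absolute log2 change of the 21 genes was 0.31, beside 0.18 for all 11955 genes above background level. Their median log2 change was -0.03, beside -0.01 for those genes. The arrays of the 2 lines did not overlap in 15 of the 21 members, where 65.0% of all genes above background level did not overlap.

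The cells carried the markers of their label. All 6 epithelial markers, among them EPCAM at a mean log2 value of 14.46 in PC9 and 14.45 in PC9/gef, were above background level, with 1 higher, 2 lower and 3 that did not pass. Of 6 fibroblast and endothelial markers 5 were not, and COL1A1 had means of 7.94 and 8.46 (adjusted p = 0.057), whose part in the results below was not tested. Arrays of 1 line correlated at r = 0.9992 or more over all probe sets, and arrays of different lines at r = 0.9944 or less. With 3 arrays per line the smallest two-sided p of an exact permutation test is 0.1, so calls rest on limma, and the number of arrays limits the precision. Values of different probe sets are not compared with each other as levels, since probe sets differ in how strongly they bind. Fewer cells of a type and less RNA per cell cannot be told apart in these bulk samples.

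**Figure D1:**
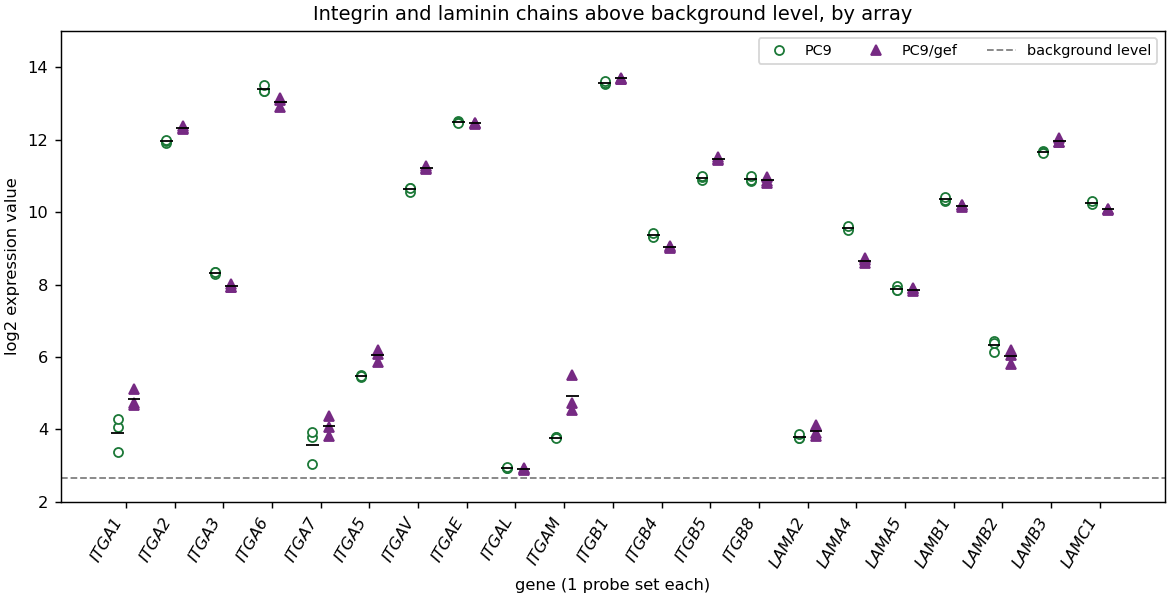
Log2 expression value on each of the 6 arrays of the 21 integrin and laminin chain genes above background level, 1 probe set per gene. Open circles are PC9 arrays, triangles are PC9/gef arrays, short bars are means of 3 arrays and the dashed line is the background level of 2.65. ITGAV, ITGB5 and ITGA2 lie higher and LAMA4 lies lower in PC9/gef without overlap, whereas the points of ITGB8 and LAMA5 overlap.

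The alpha-v chain and its partner beta5, which together form a vitronectin receptor, were both higher in PC9/gef. ITGAV encodes the alpha-v chain, which also pairs with other beta chains and binds the RGD motif of latent TGF-beta. Its log2 values were 10.66, 10.57 and 10.68 on the PC9 arrays and 11.20, 11.22 and 11.27 on the PC9/gef arrays. The groups lie well apart, and the change was 1.51-fold (log2 change 0.59 ± 0.037, adjusted p = 0.0015 from limma). ITGB5, whose only known alpha partner is alpha-v, had values of 10.90, 10.98 and 10.99 in PC9 and 11.44, 11.51 and 11.47 in PC9/gef. Again no array of one line reached the other, and the gene was 1.43-fold higher (log2 change 0.52 ± 0.034, adjusted p = 0.0017). Of the other 3 probe sets of ITGB5, 2 were also higher, with log2 changes of 0.79 (adjusted p = 0.0036) and 0.63 (adjusted p = 0.020), and the remaining one had a log2 change of 0.05 (adjusted p = 0.68). The latter pair, with 0.63 and 0.05, both carry the suffix _x_at, given to probes that can bind other transcripts. ITGA5, the alpha chain of the classical fibronectin receptor, had values of 5.51, 5.46 and 5.49 in PC9 and 6.09, 6.20 and 5.87 in PC9/gef. It was 1.48-fold higher without overlap (log2 change 0.57 ± 0.094, adjusted p = 0.023), and its PC9/gef arrays were spread more widely than its PC9 arrays. The call of ITGA5 was lost without PC9/gef replicate 1 (adjusted p = 0.082) and without each of the PC9 replicates (0.086, 0.095 and 0.087). ITGA8, the third RGD-binding alpha chain measured, lay at background level.

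The promoters of ITGAV and ITGB5, partners that were both higher, are shown because they differ in the GC box, the binding motif of Sp1-type factors (GGGCGG on either strand, in capitals). Each is the stretch of 250 bases before the RefSeq start on GRCh38.p14, at chr2:186589806-186590055 (plus strand) and chr3:124901419-124901668 (minus strand).
ITGAV: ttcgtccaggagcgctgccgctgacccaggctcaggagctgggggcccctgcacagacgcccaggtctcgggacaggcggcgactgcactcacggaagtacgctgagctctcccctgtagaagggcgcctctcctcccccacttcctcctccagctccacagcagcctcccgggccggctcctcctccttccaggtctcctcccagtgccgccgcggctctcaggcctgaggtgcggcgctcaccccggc
ITGB5: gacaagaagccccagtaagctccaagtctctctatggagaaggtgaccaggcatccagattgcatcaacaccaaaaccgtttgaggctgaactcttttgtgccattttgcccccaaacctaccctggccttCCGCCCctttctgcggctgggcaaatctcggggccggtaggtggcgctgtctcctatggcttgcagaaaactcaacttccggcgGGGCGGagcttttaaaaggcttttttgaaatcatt
The ITGB5 stretch holds 2 GC boxes and the ITGAV stretch holds none. Neither holds TGANTCA, the AP-1 motif, or TATAAA, the TATA box. The same 250 bases hold a GC box in 42.6%, an AP-1 motif in 6.57% and a TATA box in 10.7% of 35116 promoters of the table. Of the 23 measured members with a promoter in it, 12 hold a GC box, none holds an AP-1 motif and 1, ITGA6, holds a TATA box. By call, GC boxes were found in 5 of 6 higher members, 2 of 3 lower members, 4 of 8 that did not pass and 1 of 6 at background level. The motifs are matches of letters, and binding was not measured.

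Among the collagen receptors, ITGA2 was higher, ITGA1 was variable, and ITGA10 and ITGA11 lay at background level. ITGA2 encodes the alpha2 chain of a collagen receptor that is common on epithelial cells. Its values were 11.92, 11.98 and 11.99 in PC9 and 12.33, 12.29 and 12.39 in PC9/gef, again without overlap. This is a 1.30-fold rise (log2 change 0.37 ± 0.034, adjusted p = 0.0042 from limma), and the second probe set of the gene also passed (log2 change 0.43, adjusted p = 0.034). ITGA1, the alpha chain of a receptor with a preference for collagen IV, had values of 4.07, 4.28 and 3.39 in PC9 and 4.67, 4.73 and 5.13 in PC9/gef. The lines did not overlap, but the spread among PC9 arrays was large (SD 0.47, n = 3) and the log2 change of 0.93 ± 0.29 did not pass (adjusted p = 0.094). With probe sets above background level on fewer than 3 arrays left out, it passed (adjusted p = 0.032). With 1 array left out it passed in 0 of 6 fits (adjusted p from 0.13 to 0.23). The mean over its probe sets did not pass either (log2 change 0.37, adjusted p = 0.093). A second probe set of ITGA1, with means of 2.77 and 2.96, overlapped between the lines (log2 change 0.19, adjusted p = 0.35). ITGB1, the common partner of the collagen receptors, most laminin receptors and the fibronectin receptor, had values of 13.55, 13.58 and 13.62 in PC9 and 13.71, 13.69 and 13.69 in PC9/gef. The 1.08-fold rise was the smallest among the genes that passed (log2 change 0.11 ± 0.019, adjusted p = 0.025), and other probe sets of ITGB1 did not share it, with log2 changes of 0.04 (adjusted p = 0.21) and -0.11 (adjusted p = 0.095). The call was also lost without PC9 replicate 2 (adjusted p = 0.098) or PC9/gef replicate 1 (0.084), 2 (0.055) or 3 (0.083), and when its 7 probe sets were averaged (log2 change 0.0036, adjusted p = 0.77).

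Of the laminin-binding chains, ITGA3 and ITGB4 were lower, and ITGA6, which pairs with ITGB4 in the hemidesmosome, passed on 1 of its 2 probe sets. ITGA3, which with beta1 forms a laminin receptor of epithelia, had values of 8.29, 8.36 and 8.35 in PC9 and 8.03, 7.93 and 7.93 in PC9/gef. It was 1.29-fold lower without overlap (log2 change -0.37 ± 0.038, adjusted p = 0.0059 from limma), on its only probe set. ITGB4, which has a long tail that links laminin to keratin filaments, had values of 9.34, 9.33 and 9.42 in PC9 and 9.01, 9.08 and 9.05 in PC9/gef. It was 1.24-fold lower (log2 change -0.31 ± 0.033, adjusted p = 0.0065), and its other 4 probe sets lay at background level, so that the average of all 5 changed less (log2 change -0.07, adjusted p = 0.038). The leading probe set of ITGA6 gave 13.34, 13.35 and 13.52 in PC9 and 13.09, 12.92 and 13.14 in PC9/gef, lower on every array but not past the test (log2 change -0.36 ± 0.085, adjusted p = 0.060). Its second probe set, named _s_at, gave 11.24, 11.26 and 11.24 in PC9 and 10.25, 10.29 and 10.21 in PC9/gef. That is 1.99-fold lower with little spread (log2 change -0.99 ± 0.021, adjusted p = 0.00016). The difference between the 2 probe sets on the same array was -2.16 ± 0.11 in PC9 and -2.80 ± 0.15 in PC9/gef, with no overlap (SD, n = 3 each, exact permutation test, two-sided p = 0.1, the smallest possible). Such differences also did not overlap for the pairs of probe sets compared in LAMA4, LAMC1, ITGB1 and LAMB1. Read as the mean of both probe sets, ITGA6 was lower (log2 change -0.67, adjusted p = 0.00051), and the leading probe set passed with p-values adjusted over genes (adjusted p = 0.041), with trend and robust moderation (0.035) and without dim probe sets (0.015). With 1 array left out the leading probe set passed in 0 of 6 fits (adjusted p from 0.076 to 0.15). It also did not pass with the replicate number as a block (0.092), where the calls of ITGA3 (0.090) and ITGB4 (0.060) were lost too. Which ITGA6 transcripts each probe set binds was not examined. ITGA7, the third laminin-binding alpha chain, known from muscle, overlapped between the lines (log2 change 0.50 ± 0.30, adjusted p = 0.30).

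**Figure D2:**
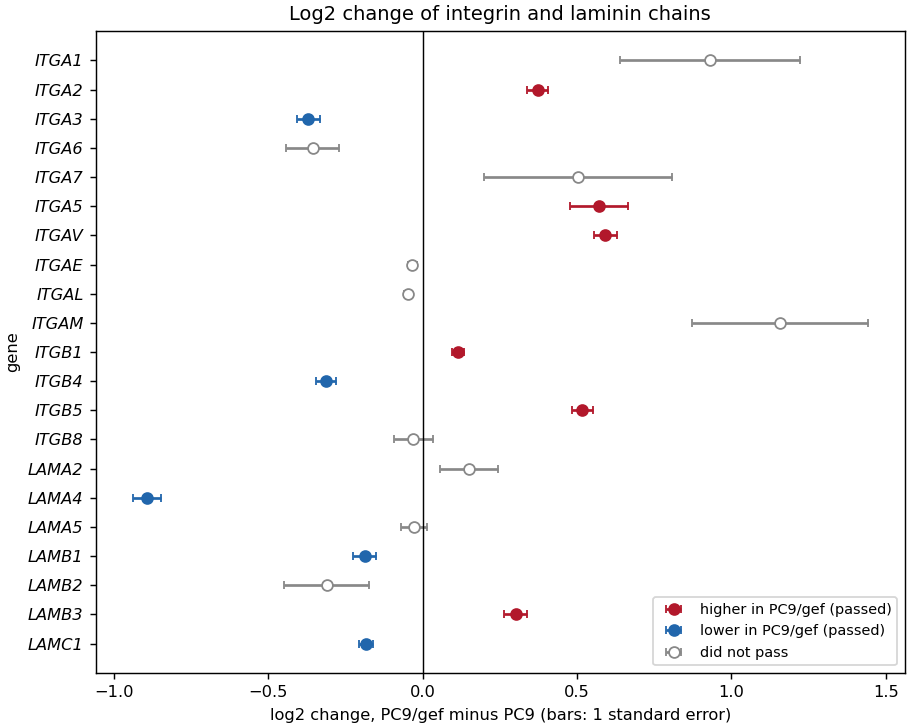
Change of the 21 integrin and laminin chain genes above background level, as log2 of PC9/gef minus log2 of PC9. Points are limma estimates from 3 arrays per line, bars are 1 standard error, and filled points passed at an adjusted p under 0.05. The largest change that passed was that of LAMA4, at -0.89, and the wider bars of ITGAM, ITGA1 and ITGA7 go with changes that did not pass.

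The remaining beta chains and the leukocyte chains gave no call. ITGB8, which with alpha-v activates latent TGF-beta, overlapped between the lines, with means of 10.92 ± 0.078 and 10.88 ± 0.085 (SD, n = 3 each, log2 change -0.03 ± 0.063, adjusted p = 0.72 from limma). ITGAE, best known from lymphocytes within epithelia, had overlapping values as well, with means of 12.49 ± 0.021 and 12.46 ± 0.015 (SD, n = 3 each), and its log2 change of -0.03 ± 0.014 did not pass (adjusted p = 0.17). ITGAM, the alpha chain of a receptor of myeloid cells, had the largest estimate of all members. Its values were 3.78, 3.78 and 3.75 in PC9 and 4.73, 5.52 and 4.54 in PC9/gef. The lines did not overlap, but PC9/gef replicate 2 lay well above the other PC9/gef arrays, and the log2 change of 1.16 ± 0.28 did not pass (adjusted p = 0.063). Without PC9/gef replicate 2 the log2 change was 0.86 and passed (adjusted p = 0.011), the only 1 of the 6 fits with 1 array left out that did. With p-values adjusted over genes in place of probe sets ITGAM passed as well (adjusted p = 0.043). So it did with trend and robust moderation (0.034), without dim probe sets (0.014) and as the mean of its probe sets (0.039). With the replicate number as a block it did not pass (0.18). The second probe set of ITGAM lay at background level. ITGAL, of lymphocytes, lay just above background level (means 2.95 and 2.90, log2 change -0.05, adjusted p = 0.076), and ITGB2, the obligatory partner of ITGAL, ITGAM and ITGAX, was at background level on all its probe sets. Of the leukocyte markers measured, 3 of 5 (PTPRC, CD14 and CD3E) were not above background level. Of the other 2, CORO1A was at 4.10 and 4.17 (log2 change 0.07, adjusted p = 0.73), and LCP1, an actin-bundling protein that carcinoma cells can also express, rose from 9.88 to 10.95 (log2 change 1.07, adjusted p = 0.00037). Their part in the ITGAM values was not tested. ITGA4, ITGA8, ITGA9, ITGA10, ITGA11, ITGAX, ITGB2, ITGB3, ITGB7, LAMA1, LAMB4 and LAMC3 were the 12 members at background level, and no change is read for them.

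Among the laminins, the alpha4, beta1 and gamma1 chains, which can assemble with each other into 1 trimer, were lower in PC9/gef, and the beta3 chain was higher. The falls of beta1 and gamma1 were 1.14-fold each, and neither held in all fits with 1 array left out. The second probe set of the gamma1 gene, LAMC1, did not fall (log2 change 0.04). LAMA4 encodes the alpha4 chain, a laminin chain known from vessel walls and other mesenchymal basement membranes. It showed the largest change among the members that passed, and 3 of its 5 probe sets, all of those above background level, were lower. On the leading probe set the values were 9.55, 9.51 and 9.61 in PC9 and 8.72, 8.68 and 8.59 in PC9/gef, a 1.85-fold fall (log2 change -0.89 ± 0.046, adjusted p = 0.00095 from limma). On the second they were 7.18, 7.14 and 7.19 in PC9 and 5.78, 5.81 and 5.72 in PC9/gef, a 2.64-fold fall (log2 change -1.40 ± 0.027, adjusted p = 0.00014). On the third they were 5.32, 5.20 and 4.83 in PC9 and 3.40, 3.99 and 3.39 in PC9/gef, with a log2 change of -1.52 ± 0.24 (adjusted p = 0.020). Every PC9 array lay above every PC9/gef array on each of the 3, all of which are named _s_at, and the size of the fall differed between them. The difference between the second and the leading probe set on the same array went from -2.39 ± 0.026 in PC9 to -2.89 ± 0.040 in PC9/gef (SD, n = 3 each, exact permutation test, two-sided p = 0.1, the smallest possible).

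The promoter of LAMA4 is shown as that of the member with the largest change that passed, and the promoter of LAMB1 as that of a partner chain that was also lower. Both are the 250 bases before the RefSeq start on GRCh38.p14, at chr6:112254568-112254817 (minus strand) and chr7:108003162-108003411 (minus strand), with GC boxes in capitals.
LAMA4: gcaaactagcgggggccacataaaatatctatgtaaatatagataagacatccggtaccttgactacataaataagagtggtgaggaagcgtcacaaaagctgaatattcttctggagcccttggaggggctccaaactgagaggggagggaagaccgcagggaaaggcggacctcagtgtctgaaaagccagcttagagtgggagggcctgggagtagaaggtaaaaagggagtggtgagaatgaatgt
LAMB1: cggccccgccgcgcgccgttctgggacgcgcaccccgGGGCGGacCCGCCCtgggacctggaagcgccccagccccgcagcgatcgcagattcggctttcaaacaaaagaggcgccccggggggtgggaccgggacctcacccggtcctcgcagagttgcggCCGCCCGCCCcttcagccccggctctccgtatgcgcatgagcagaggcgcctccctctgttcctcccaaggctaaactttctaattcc
The LAMB1 stretch holds 4 matches to the GC box, 2 of them in overlapping letters, and 70.4% of its bases are G or C. The LAMA4 stretch holds none, with 48.4% G or C.

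LAMB1, which encodes the laminin beta1 chain, had values of 10.32, 10.35 and 10.43 in PC9 and 10.20, 10.14 and 10.21 in PC9/gef. It was 1.14-fold lower (log2 change -0.19 ± 0.038, adjusted p = 0.042 from limma), and its second probe set was 1.30-fold lower (log2 change -0.38 ± 0.032, adjusted p = 0.0033). On the leading probe set no call remained when any 1 of the 6 arrays was left out, with adjusted p-values from 0.067 to 0.12. It also did not pass with the replicate number as a block (0.12). As the mean of both probe sets LAMB1 was lower (log2 change -0.28, adjusted p = 0.0031). LAMC1, the gamma chain shared by most laminins, had values of 10.27, 10.22 and 10.30 in PC9 and 10.09, 10.08 and 10.07 in PC9/gef. It was 1.14-fold lower (log2 change -0.18 ± 0.023, adjusted p = 0.011), but its second probe set did not show this (log2 change 0.04 ± 0.047, adjusted p = 0.52), and the call was lost without PC9 replicate 1 (adjusted p = 0.055) or PC9/gef replicate 3 (0.054), and with the mean of both probe sets (log2 change -0.07, adjusted p = 0.19). LAMB3 encodes the beta3 chain of the laminin that anchors hemidesmosomes. Its values were 11.69, 11.68 and 11.63 in PC9 and 11.94, 12.04 and 11.93 in PC9/gef, a 1.23-fold rise without overlap (log2 change 0.30 ± 0.037, adjusted p = 0.010). LAMA5, the alpha chain of the main laminin of adult epithelia, overlapped between the lines (means 7.89 and 7.86, log2 change -0.03 ± 0.042, adjusted p = 0.65). LAMB2 was at 6.33 ± 0.16 and 6.02 ± 0.19 (SD, n = 3 each) and did not pass (log2 change -0.31 ± 0.14, adjusted p = 0.18), and LAMA2, known from muscle, was at 3.80 and 3.95 (log2 change 0.15 ± 0.093, adjusted p = 0.31).

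**Figure D3:**
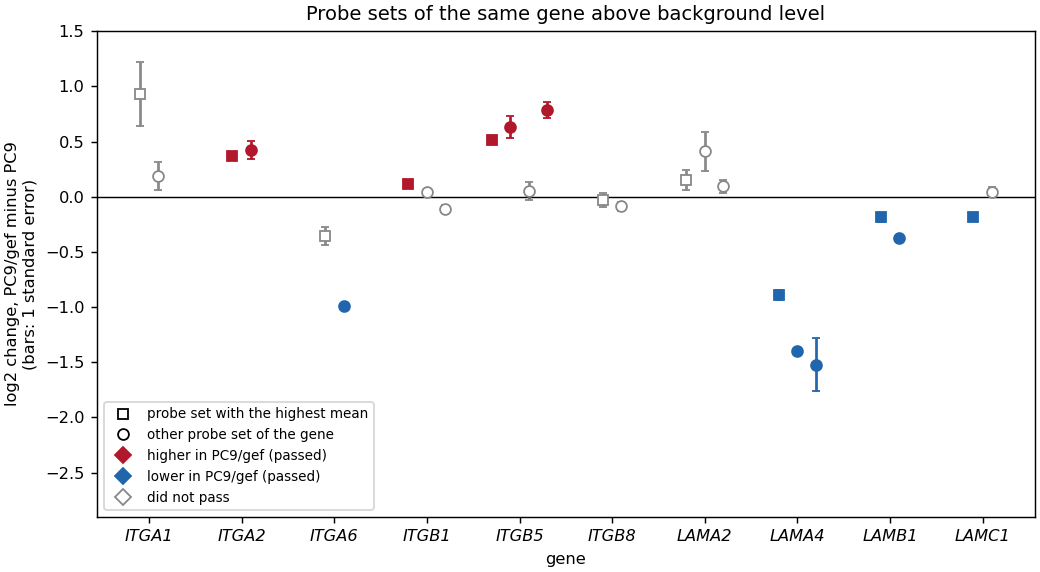
Log2 change, PC9/gef minus PC9, of every probe set above background level for the 10 genes with more than 1 such probe set. Squares are the probe sets with the highest mean, circles the others, bars are 1 standard error, and filled symbols passed. All 3 probe sets of LAMA4 lie below -0.8, the 2 of ITGA6 lie apart at -0.36 and -0.99, and those of ITGB1 and LAMC1 lie on both sides of 0.

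Counted over probe sets, 9 of the 90 were higher and 9 were lower, and 15.3% of all 54613 probe sets passed. A further 18 did not pass and 54 lay at background level. Of the 36 member probe sets above background level, 3 changed more than 2-fold, 2 of LAMA4 that passed and the leading one of ITGAM that did not. Of all 25348 probe sets above that level, 976 did so. Over genes, 1 of the 21 members and 4.77% of all genes above background level changed more than 2-fold. LAMA4 ranked 730 among the 11955 genes above background level by absolute change, ITGAV 1641, ITGA5 1745 and ITGB5 2074, while LAMB1, LAMC1 and ITGB1 ranked between 5919 and 7677.

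Around some of the chains, many neighbouring genes on the chromosome passed in 1 direction. For each of the 21 genes the 10 nearest measured genes above background level on either side were taken in the RefSeq order of GRCh38.p14, and this is a description without a test. Around ITGB5 on chromosome 3, from PARP14 to CHCHD6, 14 of the 20 neighbours were higher and none was lower, with a median log2 change of 0.42, close to the 0.52 of ITGB5 itself. Around LAMB2, also on chromosome 3, from PRKAR2A to IP6K1, 14 of 20 were lower and none was higher, with a median of -0.55 and a range from -0.94 to -0.03. The -0.31 of LAMB2, which did not pass, lies within that range. Around LAMB1 on chromosome 7, 10 of 20 were lower and 1 was higher (median -0.23, against -0.19 for LAMB1). Around ITGB8, also on chromosome 7, 10 of 20 were higher and 3 lower (median 0.16, against -0.03 for ITGB8). Around ITGA1 on chromosome 5, 9 were higher and 2 lower (median 0.18, against 0.93 for ITGA1, which did not pass). Among all genes above background level 20.9% were higher and 19.5% lower. The neighbours of ITGAV (median -0.06, 3 higher and 3 lower) and of LAMA4 (median -0.12, 6 higher and 7 lower) went both ways, unlike the 0.59 and -0.89 of the chains themselves. The neighbours of ITGA6, with 8 higher and 2 lower, had a median of 0.19, against -0.36 on its leading probe set. For the other chains that passed, higher and lower neighbours were 7 and 3 for ITGA2, 7 and 2 for LAMB3 and 5 and 3 for ITGA3. They were 4 and 2 for ITGA5, 3 and 1 for ITGB1, 1 and 6 for ITGB4 and 1 and 7 for LAMC1. The neighbours of ITGA1 and of ITGA2, both on chromosome 5, had the same lowest and highest log2 change (-0.44 and 1.99).

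**Figure D4:**
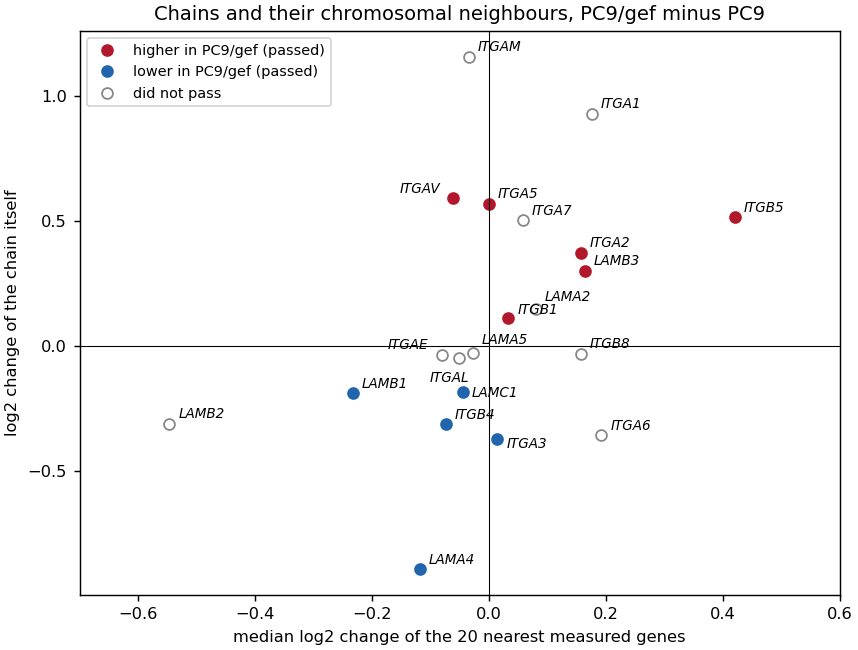
Log2 change of each of the 21 chains, PC9/gef minus PC9, against the median log2 change of its 20 nearest measured genes on the chromosome. Filled points passed. ITGB5 and LAMB2 lie far to the right and left, at neighbour medians of 0.42 and -0.55, whereas ITGAV lies at -0.06 and LAMA4 at -0.12.

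Among the integrin ligands outside the laminins, 4 of 14 genes above background level changed by more than 2-fold. Over all genes above that level, 4.77% did so. Of 18 measured ligand genes, 6 were higher, 2 were lower, 6 did not pass and 4 lay at background level. The 8 of 14 that passed stand beside 40.4% of all genes above background level. Over these 14 genes the median log2 change was 0.19, with a median absolute change of 0.43. FN1, the gene of fibronectin, bound by the ITGA5 and ITGAV products, rose 4.89-fold, with a mean of 8.47 ± 0.077 in PC9 and of 10.76 ± 0.14 in PC9/gef (SD, n = 3 each, log2 change 2.29, adjusted p = 0.00046 from limma). TNC, the gene of the matrix protein tenascin-C, rose 4.50-fold (log2 change 2.17, adjusted p = 5.8e-05). EDIL3, a secreted RGD protein that binds alpha-v integrins, rose 3.23-fold (log2 change 1.69, adjusted p = 0.00037). ICAM1, the ligand of ITGAL and ITGAM with ITGB2, was 3.33-fold lower (log2 change -1.74, adjusted p = 0.0023).

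Of 17 measured genes of the basement membrane and of other laminin receptors, 3 were higher, 2 were lower, 5 did not pass and 7 lay at background level (median log2 change 0.02 over 10 genes). The 5 of 10 that passed stand beside 40.4% of all genes above background level. The collagen IV chains COL4A6, 2.80-fold higher (log2 change 1.48, adjusted p = 0.00023), and COL4A5, 2.22-fold higher (log2 change 1.15, adjusted p = 0.0011), changed most, while COL4A1 and COL4A2 lay at background level. SDC1, a syndecan that works with integrins, was 1.27-fold higher (adjusted p = 0.0063), and NTN4, a netrin that binds laminin, was 1.31-fold lower (adjusted p = 0.034).

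Of 34 measured adaptors and kinases that couple integrins to actin, 6 were higher, 5 were lower, 17 did not pass and 6 lay at background level (median log2 change 0.02 over 28 genes). The 11 of 28 that passed are near the share of 40.4% among all genes above background level. TNS1, a tensin that binds the tails of beta chains, was at background level in the 3 PC9 arrays and had a mean of 4.85 ± 0.33 (SD, n = 3) in PC9/gef, at least 4.59-fold higher against that level (adjusted p = 0.0022). NEDD9, a docking protein of focal adhesions, was 1.91-fold higher (adjusted p = 0.0024). FERMT1 and FERMT2, the kindlins that activate integrins through the beta tail, were 1.67-fold (adjusted p = 0.0013) and 1.46-fold lower (adjusted p = 0.019).

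Of 8 measured partners in hemidesmosomes and tetraspanin complexes, 2 were higher, 2 were lower and 4 did not pass (median log2 change -0.08). All 8 were above background level, where 40.4% of all genes passed. CD151, the tetraspanin bound most firmly to ITGA3 and ITGA6 products, was 1.15-fold lower (adjusted p = 0.017), and CD9 was 1.25-fold lower (adjusted p = 0.0035). DST, a linker of ITGB4 to keratin, was 1.19-fold higher (adjusted p = 0.018) and CD63 1.13-fold higher (adjusted p = 0.012).

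**Figure D5:**
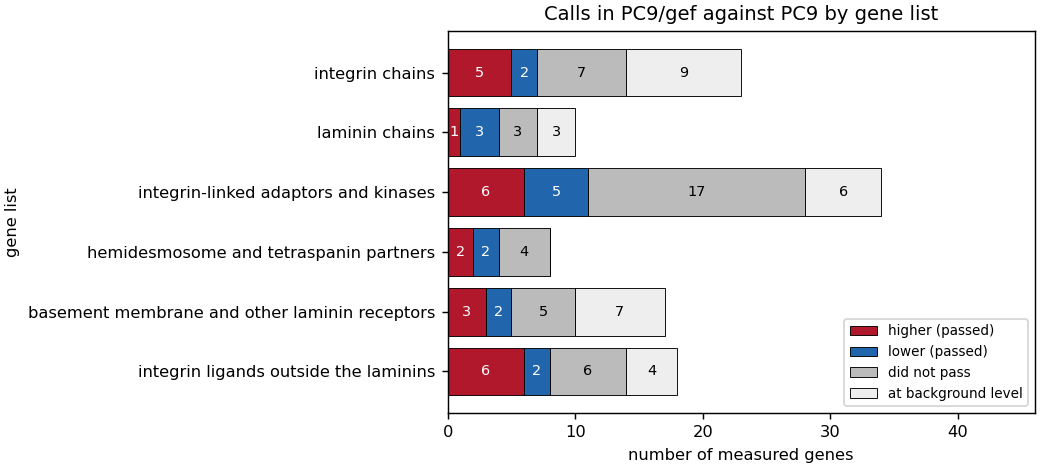
Number of measured genes that were higher, lower, did not pass or lay at background level in PC9/gef against PC9, for the integrin chains, the laminin chains and 4 lists of genes that work with them. Of the integrin chains 5 were higher and 2 lower, and of the laminin chains 1 was higher and 3 were lower. Over all measured genes 12.6% were higher and 11.8% lower.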

How the data were processed

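RNA of 3 PC9 and 3 PC9/gef samples was measured on Affymetrix Human Genome U133 Plus arrays with 54675 probe sets. The log2 values deposited by the authors were background-corrected, normalized and summarized per probe set before deposit. The submitters' processing notes name RMA for this, the study's methods GC-RMA in GeneSpring GX, and the version is not given in the sources used here. Sorted values differed by at most 0.020 between arrays, so the values were used as deposited. Groups were taken from the cell line given in the labels.

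After 62 control probe sets were left out, the lines were compared with limma 3.58.1 in R 4.3.3 without trend or robust settings, and p-values of the 54613 probe sets were adjusted by Benjamini-Hochberg. The code was tested on simulated data. Gene names came from the platform annotation and promoters from RefSeq, in which 25 of the 35 symbols had an entry. Values on every array are given for each member that was above background level and passed, and for ITGA1, ITGA6 and ITGAM, chosen after their values were seen. From every other list up to 4 genes are named, by size of change among those past the test. COL1A1, EPCAM, COL4A1, COL4A2 and leukocyte markers without a call are named outside this rule. A small list of further integrin chains, ITGA2B and ITGAD, lay at background level. The members and lists were chosen with earlier results of these data known. Python 3.11.15 and matplotlib 3.10.9 made the figures.

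Alternatives were trend and robust moderation, median centring, quantile normalization, a filter on dim probe sets, adjustment over genes, the mean over a gene's probe sets, dropping _x_at and _s_at probe sets, a 2-fold minimum, the methods' t-test, the replicate number as a block, and leaving out each array.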

Additional observations from a re-analysis of the deposited data

How the results depend on the processing

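The counts of 6 higher and 5 lower members stayed within 1.5 times under median centring, quantile normalization, trend and robust moderation (7 and 6), the dim filter (8 and 6), adjustment over genes (7 and 6) and the mean over probe sets (6 and 5). Under that mean the genes differed: ITGB1 (0.0036) and LAMC1 (-0.07) lost their calls and ITGAM (adjusted p = 0.039) and ITGA6 (adjusted p = 0.00051) gained one in limma. The methods' t-test gave 8 and 7 unadjusted, and 6 and 5 after Benjamini-Hochberg adjustment. Without probe sets named _x_at or _s_at, 18 members had a value, 5 of them higher and 2 lower; the adaptors then had 2 higher and 3 lower, and 1 gene was lower in each of the hemidesmosome, basement membrane and ligand lists. ITGB1 (log2 change 0.04), ITGB4 (-0.01) and LAMA4 (-0.0023) did not pass there, the latter pair on probe sets at background level. With a 2-fold minimum no member was called by limma (0 higher, 0 lower; at an unadjusted p under 0.05, 1 higher and 0 lower).

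No replicate number paired the samples: deviations of same-numbered arrays correlated at -0.026, 0.016 and 0.048. With the replicate number as a block, 3 members were higher (ITGA2, ITGAV and ITGB5) and 1 was lower (LAMA4). ITGA3, ITGA5, ITGB1, ITGB4, LAMB1, LAMB3 and LAMC1 lost their calls there (adjusted p from 0.060 to 0.15 from limma). Under the block the adaptors had 3 higher and 3 lower, and the ligands 1 lower. The hemidesmosome list had 0 higher and 0 lower (2 and 2 at an unadjusted p under 0.05 from limma), and the basement membrane list 0 lower (3 unadjusted).

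Leaving out 1 array gave 4 to 6 higher and 3 to 5 lower members, the latter with 3 without PC9 replicate 1 or PC9/gef replicate 3. It gave 5 to 8 higher and 3 to 4 lower adaptors (3 without PC9/gef replicate 2 or 3 and without PC9 replicate 1 or 3). It gave 1 to 2 higher hemidesmosome genes (1 without PC9/gef replicate 1 or 3 and without PC9 replicate 2 or 3) and 1 to 2 lower ones (1 without PC9/gef replicate 3 and without any of the PC9 replicates). It gave 3 higher and 0 to 2 lower basement membrane genes, the 0 from limma without PC9/gef replicate 1 or 3 and without PC9 replicate 2 (2 to 3 at an unadjusted p under 0.05), and 6 higher and 1 to 3 lower ligands (1 without PC9 replicate 2 or 3). ITGA2, ITGA3, ITGAV, ITGB4, ITGB5, LAMA4 and LAMB3 passed in all 6 of these fits. Signal over background limits what can be read from the 12 members at background level. The cause of these shifts was not tested.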
